A study of Mus musculus with 18 samples.

Results

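The genes described here are 36 mouse genes of the synaptic vesicle and its release machinery, a listed set that covers the SNARE proteins, complexins, synaptotagmins, vesicle membrane proteins, vesicular glutamate transporters, synapsins, synucleins, Rab3 GTPases and active zone scaffolds. Of the 36 genes, 35 had a matched probe and all 35 were among the 22854 features tested, while Syt5, a synaptotagmin, had none. Where a gene had several probes, the brightest stood for it. The genes were measured in explant cultures of dorsal root ganglia from C57BL/6J mouse embryos of stage E13.5, grown on matrigel for 12 days in growth medium and then switched to a medium in which Schwann cells myelinate. RNA was taken on day 0 (before the switch), on day 10 (early myelination) and on day 22 (many mature sheaths). Each day had 3 batches of ganglia from separate pools of embryos and 2 technical arrays per batch, so 6 arrays per day and 18 in all. The batches are so named in the description of the study, and the sample titles give the same numbers to a mouse. No culture without the myelination medium was analysed here, so the medium and time in culture cannot be told apart.

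At a synapse, Stx1a and Snap25 on the plasma membrane and a Vamp protein on the vesicle zip into the SNARE complex that drives fusion. Synaptotagmins sense the calcium that triggers it, Rab3 proteins and the active zone scaffolds Rims, Unc13a, Bsn and Pclo tether and prime vesicles, and synapsins hold the reserve pool. Sensory neurons of the dorsal root ganglion are glutamatergic, and in an explant without their central targets these genes serve vesicles along axons and at endings that the arrays do not resolve.

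Levels are log2 intensities of a probe relative to the 75th percentile of its array, so levels are compared between days for 1 gene and not between genes. Array values are given as the lowest, the median and the highest of the 6 arrays of a day. A change is a log2 difference ± its standard error from limma, fitted to the 9 batch means (n = 3 batches per day), and each p was adjusted by Benjamini-Hochberg across the 22854 features, at a threshold of 0.05. The array files and the authors' deposited value table assign batches differently for 12 of the 18 arrays, always within a day, and the 2 assignments are called file batches and table batches. File batches gave the errors printed, and "rose" and "fell" are kept for genes past the threshold with both assignments. Which assignment is right is not stated in the sources used here. Over all features, the median absolute difference between the 2 arrays of a batch averaged 0.2 with file batches and 0.169 with table batches. Table batches gave larger errors for some genes, as for Syt7 (0.31 against 0.17) and Syt1 (0.36 against 0.20). They gave smaller ones for others, as for Rab3b (0.14 against 0.23). Where a second adjusted p follows the first, it is that with table batches. Each assignment was also fitted with the batch number as a block, called blocked table batches and blocked file batches. A gene said to pass no test passed in none of these fits, blocked or not. Other alternatives, in which more genes passed, are counted at the end.

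Markers showed that neurons, Schwann cells and other cells were present. All 17 pan-neuronal and all 8 Schwann cell markers were detected, and of the 6 sensory neuron markers Prrxl1 alone was too dim to test. The mean log2 level of the pan-neuronal markers was 3.52 on array 2 of batch 1 of day 0 and 4.29 to 4.61 on the other day 0 arrays, 4.08 to 4.66 on day 10, and 3.59 to 4.28 on day 22. The low day 0 array was also the lowest of its day for 26 of the 35 synaptic genes, so counts are given without it too. As a sum of linear levels, the 8 macrophage markers lay at 6.82 to 23.7 on day 0, 25 to 76.8 on day 10 and 61.1 to 333 on day 22. The 8 Schwann cell markers lay at 518 to 703, 731 to 890 and 515 to 933 on the same days, the 6 fibroblast markers at 498 to 817, 550 to 780 and 460 to 806, and the 3 melanocyte markers tested at 3.53 to 4.99, 53.8 to 85.3 and 13 to 83.3. What part these shifts had in the changes below was not tested. In whole cultures, fewer neurons and less RNA per neuron cannot be told apart.

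On day 22 against day 0, 29 of the 35 genes were below 0, with a median change of -0.48 against -0.08 over all features. By day 22, Rab3b, Syngr1 and Syt4 were higher than on day 0 with both batch assignments, without a block. Syt7, Syt13, Sv2a, Rims2, Stx1a, Syngr3, Pclo, Syn2, Rab3a and Rab3c were lower on the same terms. The core fusion genes Snap25, Vamp1, Vamp2 and Nsf, the complexins and the vesicle marker Syp did not pass the threshold in any of the 3 comparisons with file or table batches, without a block. Of these, Snap25 and Cplx1 differed by -0.73 ± 0.34 and -0.80 ± 0.31 on day 22 against day 0, so the missed threshold does not mark them as unchanged. By day 10 Rab3b and Syt4 had risen and Syt7, Sv2a and Syt13 had fallen, and the fall of Syt13 was larger on day 10 than on day 22.

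**Figure D1:**
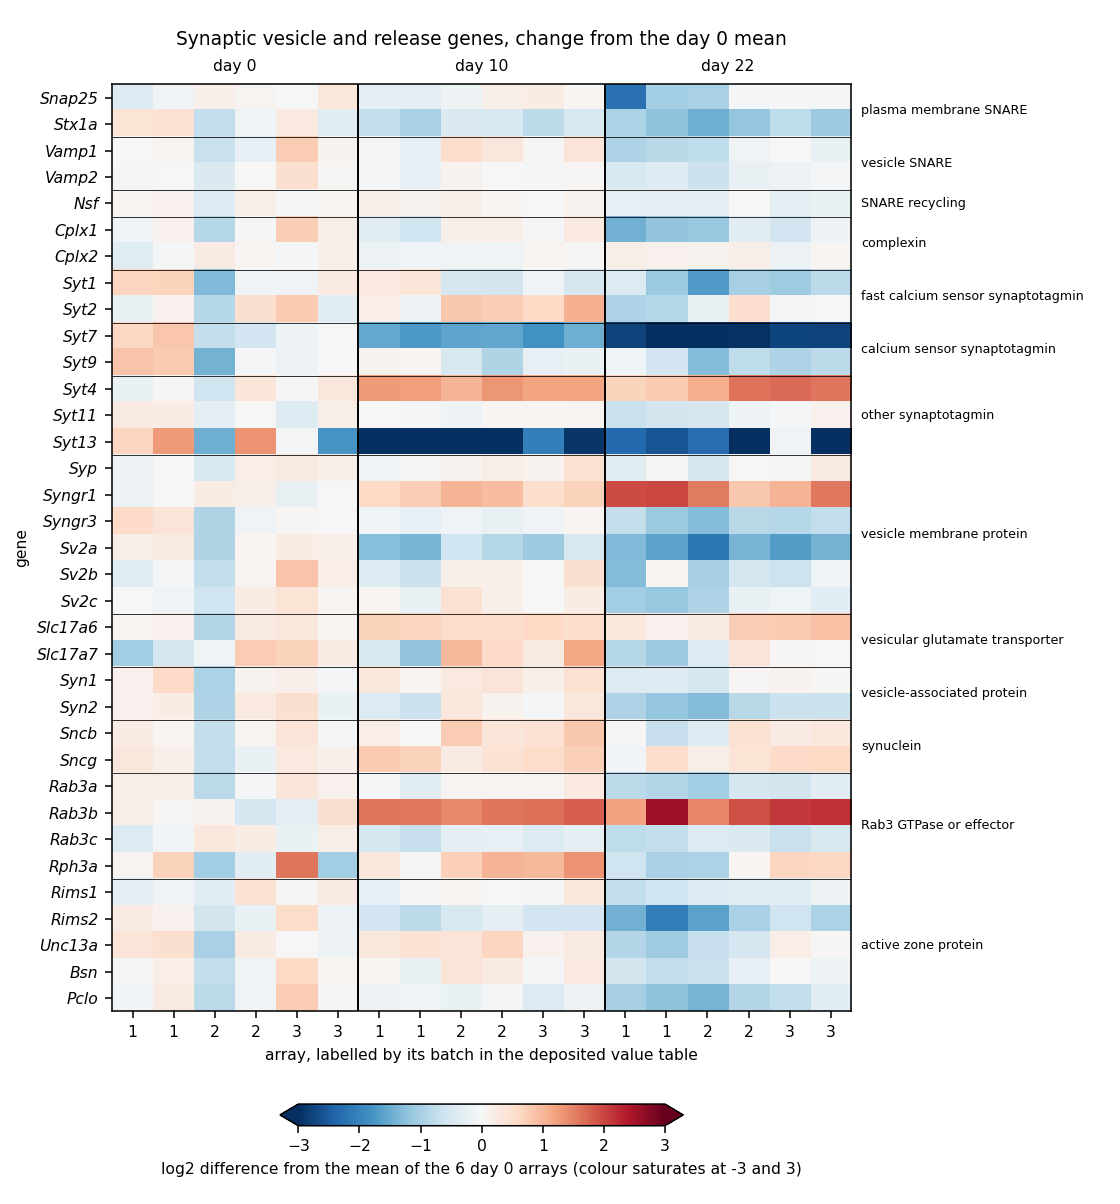
Level of each of the 35 synaptic genes on each of the 18 arrays, as the log2 difference from that gene's mean over the 6 day 0 arrays, with genes grouped by role and arrays ordered by day and by their batch in the deposited value table. Rab3b, Syt4 and Syngr1 are red on all day 10 and day 22 arrays, Syt7 is blue on all of them, and 1 day 0 array, in batch 2 of that table and batch 1 of the array files, is pale blue for most genes.

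The promoters of 4 of these genes are shown because the genes moved in opposite directions, Rab3b and Syngr1 up and Sv2a and Stx1a down. Sequences run from 250 bases before to 50 after the start of the gene, from RefSeq on build GRCm38.p6. They lie at chr4:108878820-108879119 (Rab3b), chr15:80091084-80091383 (Syngr1), chr3:96180977-96181276 (Sv2a) and chr5:135023232-135023531 (Stx1a), all on the plus strand. Capitals mark GGGCGG, the GC box bound by Sp factors, and TATAAA, the TATA box, on either strand.
Rab3b: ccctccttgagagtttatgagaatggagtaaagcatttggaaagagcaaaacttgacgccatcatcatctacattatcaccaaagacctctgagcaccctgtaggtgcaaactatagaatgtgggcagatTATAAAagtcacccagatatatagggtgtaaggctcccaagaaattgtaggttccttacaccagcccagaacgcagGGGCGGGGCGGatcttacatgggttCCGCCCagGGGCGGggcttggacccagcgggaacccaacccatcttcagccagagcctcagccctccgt
Syngr1: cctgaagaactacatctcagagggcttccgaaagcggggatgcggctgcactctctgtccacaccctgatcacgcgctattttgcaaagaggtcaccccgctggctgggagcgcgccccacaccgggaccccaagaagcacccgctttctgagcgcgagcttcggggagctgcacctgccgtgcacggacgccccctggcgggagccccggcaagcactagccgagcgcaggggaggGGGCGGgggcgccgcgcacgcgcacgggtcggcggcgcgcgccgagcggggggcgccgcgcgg
Sv2a: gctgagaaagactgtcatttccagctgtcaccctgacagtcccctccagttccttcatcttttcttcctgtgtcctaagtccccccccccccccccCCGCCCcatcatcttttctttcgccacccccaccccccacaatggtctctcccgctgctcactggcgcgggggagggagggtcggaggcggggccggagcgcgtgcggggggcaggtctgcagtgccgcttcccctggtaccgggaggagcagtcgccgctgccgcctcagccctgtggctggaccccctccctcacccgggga
Stx1a: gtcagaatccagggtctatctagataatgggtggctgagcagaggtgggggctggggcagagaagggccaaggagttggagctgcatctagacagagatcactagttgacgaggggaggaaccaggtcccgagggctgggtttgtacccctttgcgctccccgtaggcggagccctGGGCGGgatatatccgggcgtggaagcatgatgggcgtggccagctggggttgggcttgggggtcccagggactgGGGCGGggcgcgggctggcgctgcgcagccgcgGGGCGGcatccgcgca
The Rab3b promoter held 4 overlapping or neighbouring GC boxes and 1 TATA box, the Stx1a promoter 3 GC boxes, and those of Syngr1 and Sv2a 1 each. The table held 38 promoters for 28 of the 36 genes and no entry for Snap25, Vamp2, Syt4, Syt5, Syt7, Syt13, Syngr3 or Rims2. A GC box was present in 25 of the 38, and in 35.7% of all 32851 promoters. A TATA box was present in 3 of the 38, those of Rab3b and Sv2b, and in 13.6% of all. Median GC content was 61.3% over the 38 and 52.7% over all.

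The repressor REST, which silences neuronal genes in other cells, binds the RE1 element, whose parts are TTCAGCACC and GGACAGCG. The first part was present in 0.371% of all promoters and in those of Syn1 and Unc13a, and the second in 1.26% of all and in that of Unc13a. The stretches around these matches, both on the minus strand, lie at chrX:20921116-20921168 (Syn1) and chr8:71671708-71671760 (Unc13a), with the matches on either strand in capitals.
Syn1: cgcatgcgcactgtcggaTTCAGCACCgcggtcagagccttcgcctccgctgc
Unc13a: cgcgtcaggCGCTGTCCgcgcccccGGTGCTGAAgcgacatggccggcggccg
Neither gene rose or fell. A match of letters is not a measurement of binding.

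The first comparison asked what differed between early myelination and the start. On day 10 against day 0, 4 of the 35 genes were higher (11.4% of all features were) and 5 were lower (17.8% of all). With table batches 2 were higher (5.89% of all) and 3 lower (7.94%), and with blocked table batches 2 were higher (7.43%) and 4 lower (8.9%). Rab3b and Syt4 rose, and Syt7, Sv2a and Syt13 fell. The median change of the 35 genes was 0.01, against -0.06 over all features, with 18 genes above 0 and 17 below. With blocked file batches 5 were higher (12.3%) and 5 lower (17.7%). Without the low day 0 array, 3 were higher (8.45% of all) and 5 lower (10.3%).

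The second comparison covered the time in which sheaths matured. On day 22 against day 10, 1 of the 35 genes was higher (4.21% of all features), Syngr1, and 7 were lower (5.44%), namely Syt7, Syngr3, Syn2, Rab3a, Unc13a, Syt1 and Rims2. None of these passed with table batches (0 genes higher with 0.525% of all features, and 0 lower with 1.48%), so no gene rose or fell here. With blocked table batches, 0 were higher (1.39%) and Rims1 was lower (1.75% of all). The median change was -0.52, against -0.02 over all features, and 30 of the 35 genes were below 0. With blocked file batches 1 was higher (5.23%) and 8 lower (6.04%). Without the low day 0 array, which enters this comparison through the shared estimate of the spread, 1 was higher (2.92% of all) and 10 lower (4.84%).

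The third comparison covered the whole course. On day 22 against day 0, 3 genes were higher (17.1% of all features) and 14 lower (27.3%). With table batches 3 were higher (13%) and 10 lower (19.2%), and with blocked table batches 3 were higher (13.6%) and 15 lower (20.5%). The median change was -0.48, against -0.08 over all, with 29 of 35 genes below 0. With blocked file batches 5 were higher (17.6%) and 16 lower (28.1%). Without the low day 0 array, 3 were higher (15.2% of all) and 17 lower (21.6%). Each day enters 2 of the 3 comparisons, so these share samples.

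**Figure D2:**
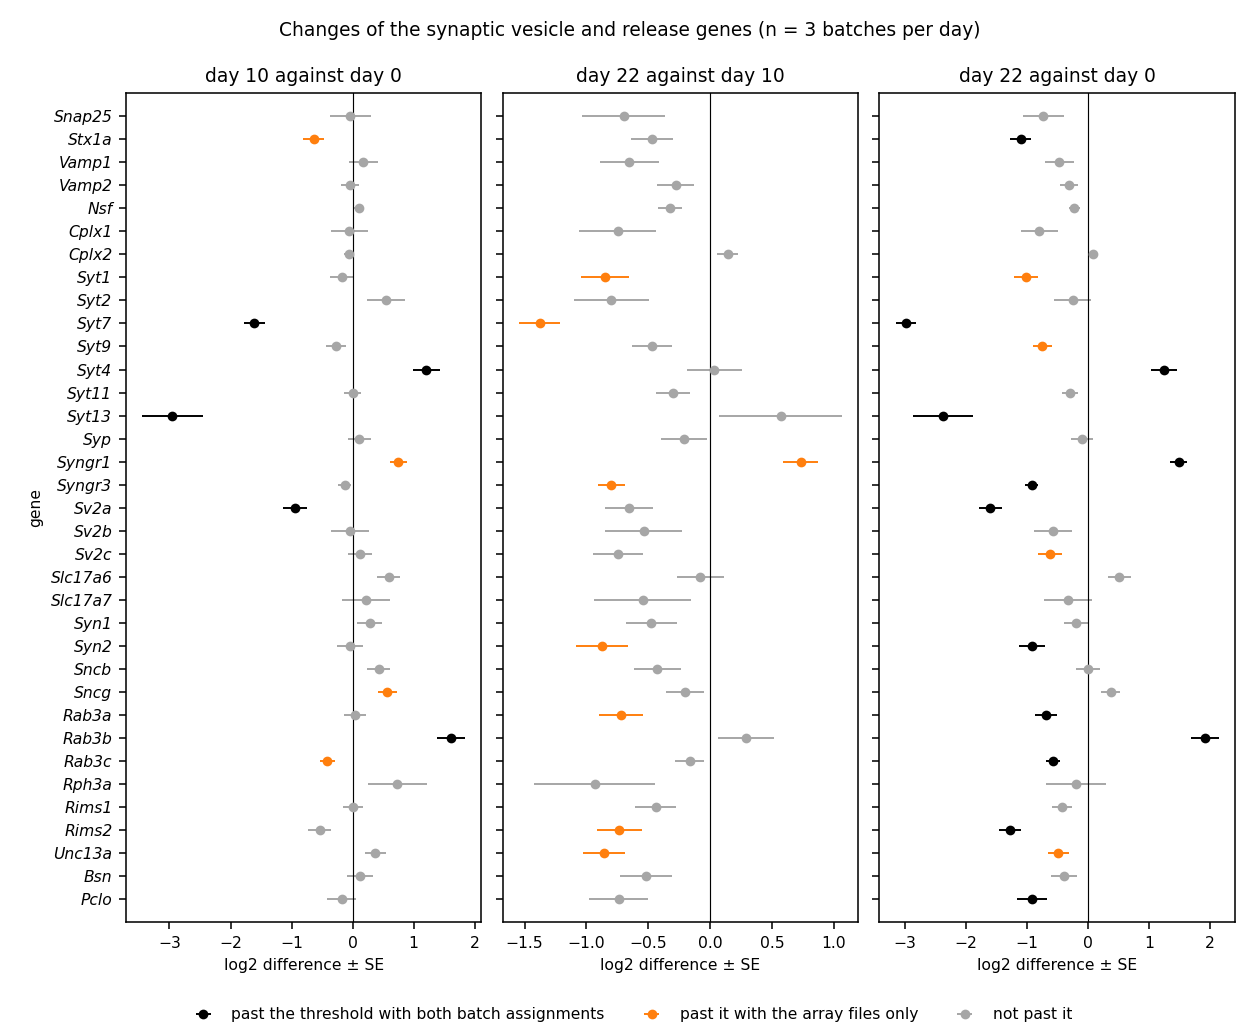
Change of each of the 35 genes in the 3 comparisons, as a log2 difference ± standard error with n = 3 batches per day; black points passed the threshold with both batch assignments, orange points with file batches alone, grey points with neither or with table batches alone. On day 22 against day 0, Rab3b, Syngr1 and Syt4 stand to the right of 0 and 10 genes stand to the left in black, whereas no point is black on day 22 against day 10.

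Among the Rab3 proteins, which are small GTPases of the vesicle surface that help dock it, the paralogs went opposite ways. Rab3b lay at 3.33, 3.89 and 4.30 on day 0, at 5.27, 5.43 and 5.62 on day 10, and at 5.02, 5.84 and 6.40 on day 22. Every day 10 and day 22 array was above every day 0 array, while day 10 and day 22 overlapped. Rab3b rose by 1.62 ± 0.23 on day 10 (adjusted p = 0.002, and 0.0018 with table batches) and by 1.91 ± 0.23 on day 22 (adjusted p = 0.000357, and 0.000134), a 3.76-fold difference. Rab3a, the main Rab3 of brain vesicles, lay at 3.90, 4.84 and 5.07 on day 0, at 4.39, 4.78 and 5.0 on day 10, and at 3.67, 4.02 and 4.36 on day 22. All day 22 arrays were below all day 10 arrays, and below all day 0 arrays but the low one, whose next neighbour was at 4.67. Rab3a fell by 0.68 ± 0.18 on day 22 against day 0 (adjusted p = 0.0151, and 0.0304), and -0.72 ± 0.18 on day 22 against day 10 passed with file batches alone (adjusted p = 0.0426, and 0.112).

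Rab3c, another paralog, fell by 0.58 ± 0.12 on day 22 against day 0 on its brightest probe (adjusted p = 0.0046, and 0.0245), with day 22 arrays at 3.44 to 3.78 against 3.77 to 4.51 on day 0. Of its 3 probes, a second changed by -0.58 ± 0.11 and the remaining one by 0.03 ± 0.19, so its probes disagree. Without the low day 0 array the change was -0.45 and missed the threshold (adjusted p = 0.0532), as it did without batch 2 or 3 of day 0 or batch 1 or 3 of day 22 of the table batches (adjusted p = 0.0587 to 0.0704). Rab3a missed it without batch 1 or 3 of day 0 or batch 1 or 2 of day 22 of the table batches (adjusted p = 0.0731 to 0.0988). Rph3a, a Rab3 effector, varied widely between arrays, at -4.94 to -2.29 on day 0, -3.86 to -2.56 on day 10 and -4.88 to -3.25 on day 22, and passed no test.

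Synaptotagmins showed the largest changes of the set. Syt7, a slow, high-affinity calcium sensor linked to asynchronous release and membrane repair, lay at -2.94, -2.31 and -1.39 on day 0, at -4.04, -3.79 and -3.68 on day 10, and at -5.84, -5.11 and -4.99 on day 22. The 3 days did not overlap. Syt7 fell by 1.61 ± 0.17 on day 10 against day 0 (adjusted p = 0.000666, and 0.0157) and by 2.99 ± 0.17 on day 22 against day 0 (adjusted p = 1.53e-05, and 0.000395), to 0.126 of the day 0 level. Between day 22 and day 10 it differed by -1.38 ± 0.17 (adjusted p = 0.0037, and 0.0661 with table batches). On day 22 its probe was well above background on 3 of 6 arrays, so the level there is near the limit of detection. With normexp background correction and quantile normalization the falls were smaller, at -0.91 on day 10 and -1.39 on day 22, each against day 0, and both still passed. Without batch 1 or 3 of day 10 of the table batches, the day 10 change of Syt7 missed the threshold (adjusted p = 0.0513 and 0.0635).

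Syt13, an atypical synaptotagmin that lacks calcium binding, lay at -2.31, -0.24 and 0.79 on day 0, at -3.94, -3.63 and -2.60 on day 10, and at -4.49, -3.0 and -0.65 on day 22. Day 0 and day 10 did not overlap, and day 22 was spread over both. It fell by 2.95 ± 0.50 on day 10 against day 0 (adjusted p = 0.0038, and 0.0069) and by 2.38 ± 0.50 on day 22 against day 0 (adjusted p = 0.0052 with either assignment to 2 digits). Within day 22 a pair of arrays that the value table gives to 1 batch read -0.65 and -4.49. Without that batch the change of Syt13 on day 22 against day 0 was -2.56 and still passed with table batches (adjusted p = 0.0106). Without the pair of table batch 1 of day 22, at -2.87 and -3.13, the file batches gave -1.96, which did not pass (adjusted p = 0.0628). Syt4, which traffics to dense-core vesicles and modulates their release, lay at 1.57, 2.20 and 2.52 on day 0, at 3.19, 3.38 and 3.48 on day 10, and at 2.82, 3.50 and 3.86 on day 22. Every array of the later days was above every day 0 array. Syt4 rose by 1.21 ± 0.22 on day 10 (adjusted p = 0.0052, and 0.0125, but 0.0518 without batch 3 of day 10 of the table batches) and by 1.24 ± 0.22 on day 22 against day 0 (adjusted p = 0.0024, and 0.0039).

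Syt1, the fast calcium sensor of synchronous release, lay at 1.61, 2.99 and 3.59 on day 0, at 2.38, 2.63 and 3.28 on day 10, and at 1.22, 1.89 and 2.52 on day 22. The days overlapped. On day 22 against day 0 it differed by -1.02 ± 0.20 (adjusted p = 0.0036), which did not pass with table batches (adjusted p = 0.0602) and passed with blocked table batches (adjusted p = 0.0059). Syt9, a related calcium sensor, lay at -1.19, 0.18 and 1.08 on day 0, at -0.68, 0.00 and 0.32 on day 10, and at -1.09, -0.55 and 0.08 on day 22, also with overlap. It differed by -0.75 ± 0.16 on day 22 against day 0 (adjusted p = 0.0064, then 0.169 with table batches and 0.0223 with blocked table batches). Syt2, the fast sensor of caudal synapses, and Syt11, which does not bind calcium, passed no test, with changes of -0.80 to 0.55 and of at most 0.30 below 0 over the 3 comparisons.

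**Figure D3:**
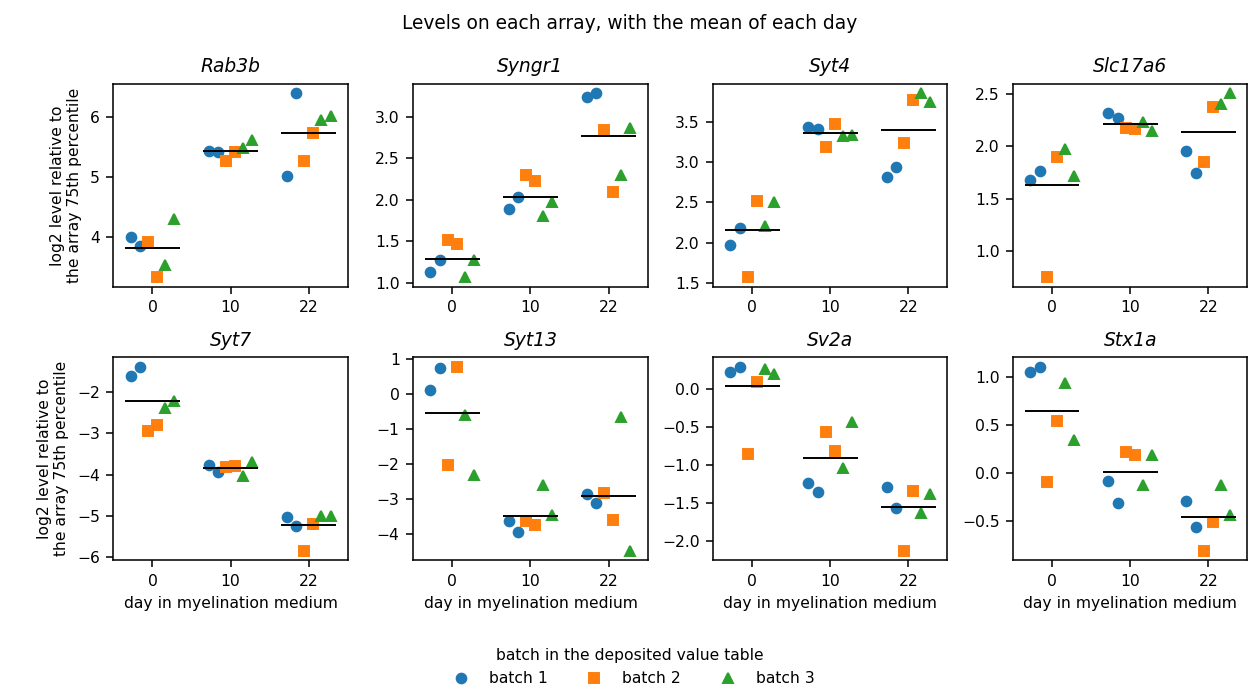
Log2 level of 8 genes on each array by day, with points coloured and shaped by the batch that the deposited value table gives the array and a line at the mean of the 6 arrays. Rab3b, Syngr1 and Syt4 are higher on every later array than on any day 0 array, Syt7 lies at 3 separate levels, Syt13 is spread on days 0 and 22, and Slc17a6 has 1 low day 0 array at 0.75.

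Vesicle membrane proteins split in the same manner. Syngr1, a synaptogyrin with a role in vesicle formation and plasticity, lay at 1.07, 1.27 and 1.52 on day 0, at 1.81, 2.01 and 2.30 on day 10, and at 2.09, 2.85 and 3.28 on day 22. The later days did not overlap day 0. It rose by 1.48 ± 0.14 on day 22 against day 0 (adjusted p = 0.000115, and 0.0018), a 2.79-fold difference, and 0.75 ± 0.14 on day 10 against day 0 passed with file batches alone (adjusted p = 0.0058, and 0.0526). The day 22 arrays that the value table gives to batch 1 were the highest for Syngr1, with a mean of 3.26, against 2.47 and 2.58 in batches 2 and 3. The same arrays had pan-neuronal means of 3.59 and 3.64, at the low end of the day.

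Its second probe did not share the rise. The probe named for transcript NM_009303 gave the values above, and the probe named for NM_207708 differed by -0.05 ± 0.15 on day 22 against day 0 (adjusted p = 0.801), so the rise of Syngr1 was seen on 1 of 2 probes. With the mean of both probes the gene still passed on day 22 against day 0, at 0.72. Pclo also had probes named for 2 transcripts: both probes named for NM_011995 were lower, by -0.92 ± 0.24 (adjusted p = 0.0141) and -1.08 ± 0.26 (adjusted p = 0.011), and both probes named for NM_001110796 lay at 0.06 ± 0.26 and -0.00 ± 0.19. The 4 probes of Cplx2 changed by -0.05 to 0.08 and disagreed in sign at this small size. For Rims1, Syn2 and Sv2c both retained probes were below 0 on day 22 against day 0. The second probe of Rims1 differed by -1.07 ± 0.25 and passed with both assignments (adjusted p = 0.00849, and 0.0201), adjusted across the retained probes. The second probes of Syn2 and Sv2c differed by -0.37 ± 0.24 and -0.30 ± 0.19 and did not pass (adjusted p = 0.238 and 0.22 with file batches).

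**Figure D4:**
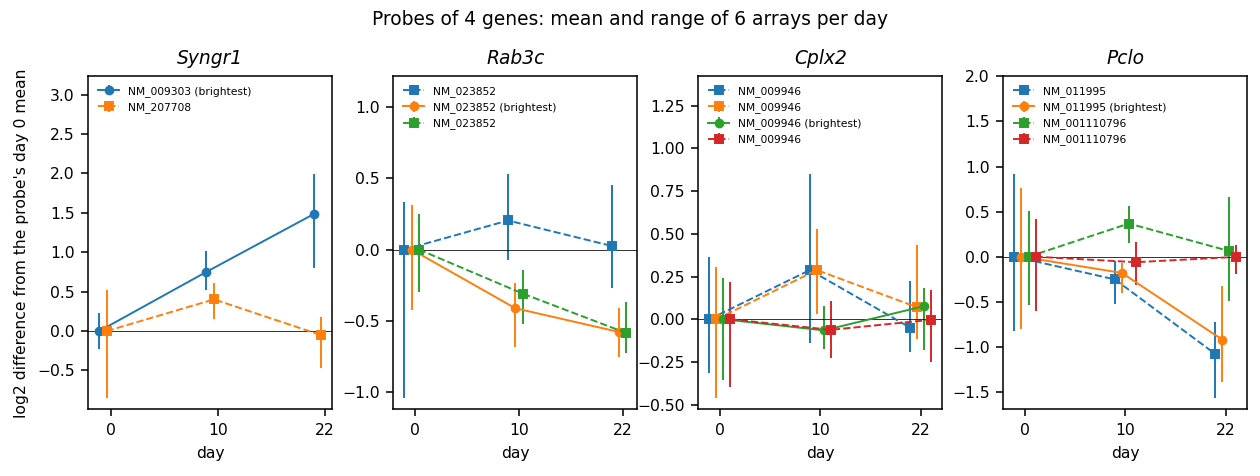
Mean and range over 6 arrays of each retained probe of Syngr1, Rab3c, Cplx2 and Pclo on days 0, 10 and 22, as the log2 difference from that probe's day 0 mean; the circle and solid line mark the brightest probe, which stood for the gene, and the legend gives the transcript the probe is named for. The solid line of Syngr1 reaches 1.48 while its dashed line stays near 0, and the probes of Pclo part by the transcript they are named for.

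Sv2a, the vesicle glycoprotein that binds levetiracetam and is found on nearly all synaptic vesicles, lay at -0.86, 0.21 and 0.30 on day 0, at -1.35, -0.93 and -0.43 on day 10, and at -2.14, -1.48 and -1.30 on day 22. All day 22 arrays were below all day 0 arrays, and all day 10 arrays were below the day 0 arrays other than the low one, the next of which was at 0.10. It fell by 0.95 ± 0.19 on day 10 (adjusted p = 0.0086, and 0.029) and by 1.60 ± 0.19 on day 22 against day 0 (adjusted p = 0.000379, and 0.0014). The day 10 fall of Sv2a was lost without batch 1 or 3 of day 0 or batch 1 or 3 of day 10 of the table batches (adjusted p = 0.0524 to 0.0935). Its paralog Sv2c lay at -3.86, -3.22 and -2.85 on day 0, at -3.46, -3.16 and -2.79 on day 10, and at -4.39, -3.89 and -3.40 on day 22, with overlap of the days. It differed by -0.63 ± 0.20 on day 22 against day 0 (adjusted p = 0.0345, then 0.0588 with table batches and 0.0348 with blocked table batches). On day 22 against day 10 Sv2c passed with blocked file batches alone (adjusted p = 0.045). The third paralog, Sv2b, passed no test, at -0.58 ± 0.31 on day 22 against day 0.

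Syngr3, a synaptogyrin reported to bind the dopamine transporter, lay at -0.31, 0.62 and 1.18 on day 0, at 0.36, 0.48 and 0.65 on day 10, and at -0.71, -0.24 and -0.11 on day 22. All day 22 arrays were below all day 10 arrays, and on day 0 the ranges met only at the lowest array. It fell by 0.93 ± 0.11 on day 22 against day 0 (adjusted p = 0.000352, and 0.0142), and -0.80 ± 0.11 on day 22 against day 10 passed with file batches alone (adjusted p = 0.0057, and 0.112). Syp, synaptophysin, the classic marker of these vesicles, lay between 3.31 and 4.27 on all 18 arrays and differed by -0.10 ± 0.19 on day 22 against day 0 (adjusted p = 0.693).

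Of the transporters that fill vesicles with glutamate, Slc17a6 (VGLUT2), the form of most sensory neurons, lay at 0.75 to 1.98 on day 0, 2.15 to 2.32 on day 10 and 1.75 to 2.51 on day 22. Its differences of 0.59 ± 0.19 and 0.51 ± 0.19 from day 0 did not pass on day 10 and day 22 (adjusted p = 0.0509 and 0.0607), nor with table batches, blocked or not (adjusted p = 0.0559 to 0.0641), and passed with blocked file batches (adjusted p = 0.0368 and 0.0416). Slc17a7 (VGLUT1) was dim, at -5.14 to -2.79 over all arrays, and passed no test between days. In a separate list of 6 other transmitter transporters, Slc17a9, which loads ATP, rose by 2.50 ± 0.34 on day 22 against day 0 (adjusted p = 0.000686, and 0.0037), 2 of 5 tested members were higher and 0 lower with file batches, and 1 was higher with table batches. Over all features 17.1% were higher with file batches and 13% with table batches.

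Among SNARE genes Stx1a, the plasma membrane syntaxin of release, lay at -0.10, 0.74 and 1.11 on day 0, at -0.32, 0.05 and 0.22 on day 10, and at -0.82, -0.48 and -0.13 on day 22. All day 22 arrays were below all day 0 arrays, by a narrow margin, and day 10 overlapped both. It fell by 1.11 ± 0.17 on day 22 against day 0 (adjusted p = 0.0013, and 0.0069), and -0.64 ± 0.17 on day 10 passed with file batches alone (adjusted p = 0.0254, and 0.0873). Its partner Snap25 differed by -0.73 ± 0.34 on day 22 against day 0 (adjusted p = 0.113). Snap25 arrays lay at 5.25 to 5.99 on day 0, 5.40 to 5.88 on day 10 and 3.43 to 5.62 on day 22, with 1 low day 22 array.

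The vesicle SNAREs Vamp1 and Vamp2 differed by -0.48 ± 0.24 and -0.32 ± 0.15 on day 22 against day 0, and Nsf, the ATPase that takes spent SNARE complexes apart, by -0.22 ± 0.09, none past the threshold. Cplx1 and Cplx2, which clamp the assembled complex, differed by -0.80 ± 0.31 and 0.08 ± 0.08. Cplx1 passed with blocked table batches (adjusted p = 0.0393) and blocked file batches (adjusted p = 0.0378), and with neither assignment unblocked. By contrast, in a list of 18 SNAREs and relatives of general exocytosis 7 were higher and 2 lower on day 22 against day 0 (5 and 1 with table batches). The shares over all features were 17.1% higher and 27.3% lower (13% and 19.2%). Vamp8, an endosomal and lysosomal SNARE, rose by 1.18 ± 0.11 (adjusted p = 9.28e-05), and Vamp4, a SNARE of the trans-Golgi, by 0.94 ± 0.12 (adjusted p = 0.000409), while Stx2 fell by 0.63 ± 0.09 (adjusted p = 0.000717). Snap23, the SNAP of non-neuronal cells, differed by -0.78 ± 0.27 (adjusted p = 0.0432, and 0.136 with table batches).

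Of the 5 active zone genes, Rims2 and Pclo fell on day 22 against day 0. Rims2, a Rab3-binding scaffold that recruits calcium channels, lay at -3.78, -3.25 and -2.66 on day 0, at -4.00, -3.80 and -3.49 on day 10, and at -5.31, -4.43 and -3.82 on day 22. Day 22 and day 0 arrays did not overlap, by a narrow margin, and 5 of 6 day 22 arrays were well above background. Rims2 fell by 1.28 ± 0.18 on day 22 against day 0 (adjusted p = 0.000821, and 0.0073), and by 0.43 with normexp and quantile, still past the threshold. Its difference on day 22 against day 10 passed with file batches and missed the threshold with blocked file batches (adjusted p = 0.0536). Pclo, a giant scaffold protein, lay at -0.65, 0.10 and 0.92 on day 0, at -0.25, 0.00 and 0.09 on day 10, and at -1.24, -0.79 and -0.17 on day 22, with overlap. It fell by 0.92 ± 0.24 on day 22 against day 0 (adjusted p = 0.0144, and 0.0187) on its brightest probe. As given above, the probes named for its other transcript lay near 0, and whether any probe is specific to 1 transcript was not tested. With the mean of its probes the difference was -0.48 and did not pass (adjusted p = 0.103), nor did Pclo pass without batch 3 of day 0 or batch 1 or 2 of day 22 of the table batches (adjusted p = 0.0563 to 0.0601).

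Unc13a, the priming factor Munc13-1, lay at -5.18, -4.09 and -3.73 on day 0, at -4.08, -3.85 and -3.58 on day 10, and at -5.29, -4.81 and -4.01 on day 22, with overlap and with 5 of 6 arrays well above background on days 0 and 22. It differed by -0.86 ± 0.17 on day 22 against day 10 (adjusted p = 0.0204) and by -0.49 ± 0.17 on day 22 against day 0 (adjusted p = 0.0465), and neither passed with table batches (adjusted p = 0.176 and 0.234). On its brightest probe, Rims1 differed by -0.43 ± 0.17 on day 22 against day 0 (adjusted p = 0.0659, then 0.0521 with table batches, 0.009 with blocked table batches and 0.0106 with blocked file batches). Its second probe, described above, passed with file and with table batches. Bsn, the partner of Pclo, differed by -0.40 ± 0.21 and passed no test. Of 8 calcium channel subunits tested, Cacna2d2 fell by 2.55 ± 0.24 (adjusted p = 0.000107, and 0.000377) and Cacna1b, the pore of N-type channels, by 1.19 ± 0.36 (adjusted p = 0.0277, and 0.0064), and 0 were higher. These 2 lower of 8 compare with 27.3% lower and 17.1% higher over all features.

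Of the synapsins and synucleins, which sit on the vesicle surface, Syn2 alone passed with both assignments. Syn2 lay at 1.23, 2.33 and 2.62 on day 0, at 1.51, 2.19 and 2.50 on day 10, and at 0.84, 1.27 and 1.51 on day 22. The highest day 22 array met the lowest day 10 array, and the low day 0 array lay within the day 22 range. Syn2 fell by 0.92 ± 0.21 on day 22 against day 0 (adjusted p = 0.0084, and 0.0187), and missed the threshold without the same batches as Pclo (adjusted p = 0.0539 to 0.0627). Its paralog Syn1 lay at 2.13 to 3.66 on day 0, 3.14 to 3.54 on day 10 and 2.54 to 3.18 on day 22 and passed no test. Sncg, a synuclein of sensory neurons, differed by 0.57 ± 0.15 on day 10 against day 0 (adjusted p = 0.0247, and 0.104 with table batches), and Sncb by 0.43 ± 0.19 (adjusted p = 0.13). On day 22 against day 0 Sncg passed with blocked file batches alone (adjusted p = 0.0288).

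Other presynaptic genes moved in part with the 35. Of all features, 17.1% were higher and 27.3% lower on day 22 against day 0 (13% and 19.2% with table batches). The counts of the lists below were not tested against these shares. Of 29 tested genes of release and priming outside the set, 3 were higher and 12 lower on day 22 against day 0 (3 and 9 with table batches), among them Doc2a, a calcium sensor of spontaneous release, with -1.39 ± 0.27, and the liprin Ppfia2 with -1.08 ± 0.17, both of which fell, and Rab27b with -0.87 ± 0.16, which fell too. Of 16 genes of vesicle recycling, 4 were higher and 6 lower (1 and 3), and Amph, which binds dynamin at endocytic necks, fell by 1.21 ± 0.16 (adjusted p = 0.00051, and 0.0026). Dense-core vesicle genes went both ways, 4 higher and 3 lower of 13 (4 and 1). Vgf rose by 1.11 ± 0.25, Pcsk1, a prohormone convertase, by 1.11 ± 0.20 and Scg3 by 0.83 ± 0.15, whereas Chga, chromogranin A, fell by 1.47 ± 0.21 (adjusted p = 0.000908, and 0.0026).

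Pan-neuronal markers were lower on day 22 as well. Of the 17, 1 was higher and 7 lower on day 22 against day 0, with either assignment, and the median change of the 17 was -0.41. Across all features 17.1% were higher and 27.3% lower (13% and 19.2% with table batches), and the median change was -0.08. Ina, an axonal intermediate filament, fell by 1.19 ± 0.16, Rbfox3 (NeuN) by 1.14 ± 0.29 and Mapt (tau) by 1.13 ± 0.23, while Thy1 rose by 1.17 ± 0.24. The synaptic genes were therefore also set relative to the mean of these markers on each array. On that scale the median change of the 35 was -0.12 on day 22 against day 0, against 0.27 over all features. There, 5 genes were higher (17.1% of all features) and 5 lower (4.8%).

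The genes higher on that scale were Rab3b, Syngr1, Syt4, Slc17a6 and Sncg, the last pair with 0.87 ± 0.20 (adjusted p = 0.0054) and 0.73 ± 0.21 (adjusted p = 0.022). The lower ones were Syt7, Syt13, Sv2a, Rims2 and Stx1a, at -2.63 ± 0.23, -2.02 ± 0.46, -1.25 ± 0.20, -0.92 ± 0.21 and -0.75 ± 0.23. Syngr3, Syn2, Rab3a, Rab3c and Pclo, which fell on the plain scale, did not pass relative to the markers (adjusted p = 0.0644, 0.0575, 0.239, 0.514 and 0.0669). On day 10 against day 0, 2 genes were higher (4.4% of all) and 5 lower (6.6%) on this scale, and on day 22 against day 10, 1 was higher (12%) and 1 lower (0.945%).

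**Figure D5:**
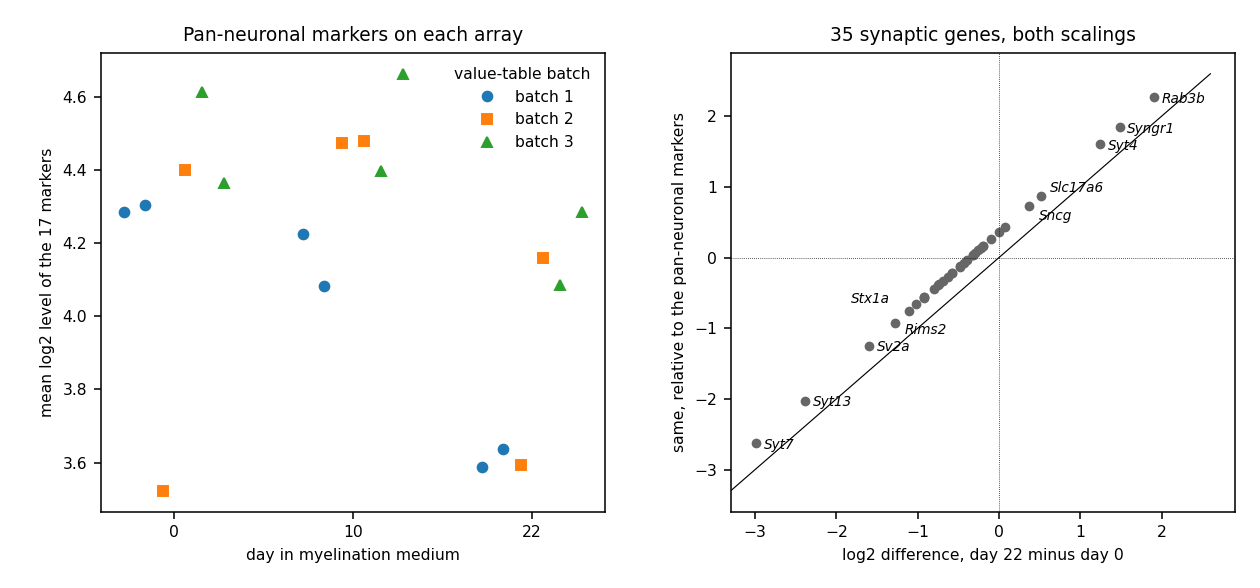
Left, mean log2 level of the 17 pan-neuronal markers on each array by day, by batch of the deposited value table; right, change of each of the 35 genes on day 22 against day 0 on the plain scale and relative to the markers, with the line of equality. One day 0 array at 3.52 and 3 day 22 arrays at 3.59 to 3.64 stand below the rest, and all genes lie above the line by the same amount, the amount by which the marker mean differed.

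Batches of embryos differed past the threshold for some genes with table batches and for none with file batches. With table batches, limma's F test for differences between batches within days called 1986 features, 8.69% of all, and 2 of the 35 genes. The test gave 1 p per gene for the 3 days together, and no day was tested alone. Syt7 (adjusted p = 0.0216) had batch means of -1.49, -2.87 and -2.31 on day 0, -3.85, -3.79 and -3.86 on day 10, and -5.13, -5.52 and -4.99 on day 22. Slc17a7 was lowest in batch 1 on each day, at -4.72, -4.78 and -4.93 on days 0, 10 and 22, against -3.97 to -3.18 in the other batches (adjusted p = 0.0447). With file batches, limma's F test called 0 features and 0 of the 35 genes, with 1781 features and 6 genes at an unadjusted p under 0.05, against 7368 and 15 with table batches. Syt1 had the same order of batches on each day, highest in batch 1 and lowest in batch 2, at 3.58, 2.20 and 2.99 on day 0, 3.25, 2.41 and 2.62 on day 10 and 2.16, 1.57 and 1.99 on day 22, and did not pass this test (adjusted p = 0.106).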

How the data were processed

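RNA of 18 culture samples was hybridised to 1-colour Cy3 Agilent arrays with 62976 spots, of which 3671 were controls. The authors took a processed intensity per spot from Agilent Feature Extraction 10.7.1.1, per the file headers (version 10.7.1 in the submitters' processing notes), with background subtracted. Flags of 0 and 1 per spot come from that software too, per the file headers. A deposited value table holds linear intensity whose 18 columns share 1 median, 33.7, with steps not given in the sources used here. When columns were matched to array files, 6 equalled the file of their own sample and 12 that of another sample of the same day, so the sources differ in batch and not in day.

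Levels were log2 of processed intensity minus the array's 75th percentile (584 to 747). Outlier spots (93 to 181 per array) were dropped, and 0 were saturated. Of the 59305 other spots, 54.8 to 61.5% carried the flag for signal well above background. The standard errors of the changes between days rest on the batch means, so technical arrays did not count as replicates there. Spots of a probe were averaged. Probes had to be well above background on every array of some day, as 30431 of 55681 were. Of their values 35 were imputed by the day mean, none in the genes described. The files give accessions without gene names, unlike what the design assumed, and 26582 probes matched 20145 symbols of a RefSeq table (GRCm38.p6). The arrays were designed on mm9, so no probe coordinates are given.

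Technical arrays were averaged within batch and day before limma 3.58.1 (R 4.3.3) was fitted to all 22854 features with the 3 days as groups. Alternatives changed the batches, background correction (normexp, offset 50, on the median signal, as the files hold no mean signal), normalization, filter, choice of probe, slide and samples. A replicate number marks a shared batch of ganglia, per the study's design text (the sample titles write mouse for it), which pairs the days. The printed fits left this pairing out, and the blocked fits used it. Same-numbered deviations from the means of the days correlated at -0.13 to 0.37 (6 of 9 above 0.1) with file batches and -0.09 to 0.46 (8 of 9) with table batches. Genes and lists were chosen with earlier results of these data known. By rule, array values were printed for up to 16 members past the threshold, by size of change, and up to 4 genes past it were named from each other list; 1 gene so chosen is not reported here.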

Additional observations from a re-analysis of the deposited data

Results flagged for a closer look

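Each of the 35 genes was examined on each day for an array that stood apart from the other 5, by Dixon's criterion, which chance meets in about 1 of 20 groups. It was met in 9 of 105 groups, 5 of them on day 0, and all 5 of those were array 2 of batch 1, the array lowest in pan-neuronal markers. On that array Nsf was at 3.06, next to 3.41 on the nearest other array, Sv2a at -0.86 next to 0.10, Slc17a6 at 0.75 next to 1.68, Sncb at -3.37 next to -2.68, and Rab3a at 3.90 next to 4.67. On day 10 Syt13 was highest at -2.60 on array 1 of batch 2, next to -3.46. On day 22 Nsf was highest at 3.42 on array 1 of batch 3, next to 3.23, Cplx2 was lowest at 5.14 on array 1 of batch 2, next to 5.39, and Syt7 was lowest at -5.84 on array 2 of batch 1, next to -5.25. The causes were not tested.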

How the results depend on the processing

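Counts are given in the order higher then lower for day 10 against day 0, day 22 against day 10, and day 22 against day 0, of 35 genes unless stated, and the printed fits gave 4 and 5, 1 and 7, and 3 and 14. Table batches gave 2 and 3, 0 and 0, and 3 and 10, and with the replicate block 2 and 4, 0 and 1, and 3 and 15. File batches with the replicate block gave 5 and 5, 1 and 8, and 5 and 16. First technical arrays alone gave 1 and 4, 0 and 0, and 3 and 9, and second ones 3 and 1, 1 and 0, and 3 and 5. The authors' values gave 2 and 3, 0 and 0, and 4 and 10. Normexp with quantile gave 5 and 5, 1 and 6, and 5 and 15. No filter gave 3 and 3, 1 and 3, and 3 and 12. The mean of probes gave 5 and 4, 0 and 6, and 3 and 13. Relative to pan-neuronal markers the counts were 2 and 5, 1 and 1, and 5 and 5, and 2 and 4, 2 and 1, and 5 and 7 with table batches and the replicate block, a choice made after seeing the data. The slide as a block gave 5 and 5, 1 and 19, and 4 and 22, whereas slide 1 alone gave 2 and 1, 0 and 0, and 3 and 4, and slide 2 alone 1 and 1, 0 and 0, and 3 and 8, on fewer samples. Calls over all 22854 features moved as well. Lower ones on day 22 against day 10 numbered 1244 in the printed fits and 2990 with the slide as a block. They numbered 262 on slide 1 alone, 32 on slide 2 alone, and 63 and 216 with first and second technical arrays alone. Moves in the counts of the 35 are therefore not particular to them. Without the day 22 arrays that the value table puts in batch 1, also a later choice, the counts were 4 and 4, 0 and 3, and 5 and 11. Leaving out each batch of each day in turn, under either assignment (that of table batches a later choice too), gave 1 to 6 and 1 to 6, 0 to 2 and 0 to 11, and 3 to 5 and 6 to 19. For day 22 against day 0, the count of lower genes was 6 without batch 3 of day 0 or batch 1 of day 22 and 7 without batch 2 of day 22, all of the table batches (10 with none left out), and that of higher genes was 5 without batch 2 of day 0 or batch 1 of day 22 of the file batches. For day 22 against day 10, lower genes numbered 11 without batch 3 of day 22 and 2 or 3 without batch 3 of day 0, a single batch of day 10, or batch 1 or 2 of day 22 of the file batches, and with table batches 0 to 2, against 0 with none left out. Its 1 higher gene was lost on leaving out each file batch of day 10 or file batch 2 of day 22, and 2 were higher without file batch 1 of day 22. For day 10 against day 0, lower genes numbered 3 without file batch 1 or 2 of day 10, and with table batches 1 without batch 1 or 3 of day 10 and 2 without batch 3 of day 0, against 3 with none left out. Higher genes numbered 1 without batch 3 of day 10 and 4 without batch 1 of day 22 of the table batches, against 2 with none left out. Batch differences within a day were called for 0 of the 35 genes with file batches and for 2 with table batches. The other settings stayed within 1.5 times the printed counts. Where not stated, the cause of a difference was not tested.

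No change past the threshold in the printed fits reversed under any of 37 alternatives. Of 34 such changes, 6 passed in every one: Syt7, Syt4, Syngr1, Sv2a and Rab3b on day 22 against day 0, and Rab3b on day 10 against day 0. Of the 71 changes not past the threshold in the printed fits, 43 passed in no alternative, and the rest passed in some. Syt7 was tested in 36 of the alternatives, as its probe was not well above background on all arrays. The rise of Syngr1 was seen on its brightest probe and not on its other one, and no alternative used that other probe alone. With 3 batches per day, a missed threshold does not show that a gene did not differ, and dim probes such as that of Syt7 on day 22 limit the size of its fall.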
